A study of Homo sapiens with 7 samples.

Results

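The 8 genes TCP1, CCT2, CCT3, CCT4, CCT5, CCT6A, CCT7 and CCT8 encode the 8 different subunits of the cytosolic chaperonin, a complex called TRiC or CCT. They were taken by symbol through the Ensembl stem of the gene ID, and are 8 of the 14294 genes in the table. They were represented by 545 isoforms, of which 23 carry a reference transcript ID. The libraries hold polyadenylated RNA of HUES66, an established line of human embryonic stem cells, read as full-length cDNA molecules by PacBio sequencing. Doxycycline at 1 µg/ml was given for 24 h in all 7 cultures, and all carry the label piggyBac, the name of a transposon vector system. The control is labelled WT. The other 6 are labelled RBFOX2 isoform KD, each with an id: G3 (id 178147), G5 (178149), G11 (178136), G12 (178135), G13 (178145) and G14 (178146). Here they are called the G libraries. The title of the series names Cas13d, a nuclease that cuts RNA at sites given by a guide, as the means of knockdown of RBFOX2, a splicing regulator. The labels do not say which RBFOX2 isoform an id denotes or whether the control expressed Cas13d. Each group is 1 library, so no difference below has a replicate check.

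The chaperonin is a barrel of a pair of stacked rings, and each ring contains every subunit once. Newly made proteins enter the cavity, are closed in by a lid formed from the subunits themselves, and are released after ATP is split. Actin and tubulin are its best known clients. Prefoldin delivers unfolded chains to it, and phosducin-like proteins act as co-factors. Because the assembled complex holds the subunits in equal number, the levels of the 8 mRNAs relative to each other are described below beside the levels themselves.

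The subunits share an ATP-binding site whose codons can be read in the reference transcripts. A run of 5 codons that begin with GG, GA, GG, AC and AC, each with any last base, was searched in frame, on the coding strand only, in the coding sequence of the leading isoform of each subunit (GENCODE 29). It was found once in 7 of the 8 and not in CCT8. Of 19684 coding genes in GENCODE 29, 27 hold it in frame in some transcript (0.137%), which include CCT6B, a relative of CCT6A, and HSPD1, the chaperonin of mitochondria. The stretches below show the match in capitals with 24 bases on either side, because 1 annotated isoform of CCT6A lacks it.
TCP1: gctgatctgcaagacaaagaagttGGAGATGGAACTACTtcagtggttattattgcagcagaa
CCT2: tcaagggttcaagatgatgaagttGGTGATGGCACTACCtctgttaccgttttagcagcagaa
CCT3: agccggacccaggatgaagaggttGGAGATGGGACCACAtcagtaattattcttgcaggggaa
CCT4: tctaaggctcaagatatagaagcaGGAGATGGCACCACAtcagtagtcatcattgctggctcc
CCT5: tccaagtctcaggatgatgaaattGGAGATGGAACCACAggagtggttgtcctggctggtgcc
CCT6A: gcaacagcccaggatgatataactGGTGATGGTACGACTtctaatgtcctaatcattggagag
CCT7: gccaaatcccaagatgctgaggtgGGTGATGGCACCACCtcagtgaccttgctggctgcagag
The match begins at codon 87 of TCP1, 96 of CCT2, 92 of CCT3, 103 of CCT4 and of CCT5, 89 of CCT6A and 91 of CCT7.

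The control had 16801844 reads, the fewest, and G12 26678540, the most, and the 8 subunits held between 115901 reads (control) and 237904 (G5). Values are TPM, here a gene's reads scaled to a common library total, with no term for length. One read stands for 1 sequenced cDNA molecule, which may be a copy of another, so levels of different genes are compared as reads. Intervals are at 95% and cover counting error only, since the reads carry no molecular identifiers. The targeted gene RBFOX2 was at 107 TPM in the control, and its G library values ran from 42.1 TPM (G3) to 106 TPM (G14). All 9 markers of pluripotent cells were listed, with a summed level of 1692 (G12) to 2143 TPM (G5). Single markers differed in opposite directions: POU5F1 was at 915 TPM in the control and 377 (G14) to 588 (G3) in the G libraries, NANOG at 10.0 TPM and 3.49 (G14) to 5.54 (G5), and L1TD1 at 18.2 TPM and 24.9 (G12) to 41.0 (G11). Of 10 markers of other cells, GATA6, SOX17, PAX6 and SOX1 had no row, GATA4, TBXT and EOMES were at 0.144 TPM or less, and VIM, COL1A1 and COL1A2 made up nearly all of a summed level of 49.4 (G14) to 112 TPM (G3). COL1A1 was at 16.4 TPM in the control, 30.3 for G3 and 1.58 for G13, log2 ratios of 0.86 and -3.03. With the trend of length and GC content removed, as described below, these were 0.11 and -0.66. The part of cell state or of other cells in the results was not tested.

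All 8 subunits were highly expressed, between percentile 95.8 and percentile 99.3 of the 7877 genes whose mean TPM reached 5, the minimum for a gene to be compared. Together they made up 0.69% of the reads of the control. Their summed level was 6898 TPM in the control, 8252 for G3, 9347 for G5, 9370.1 for G11, 7961 for G12, 8461 for G13 and 10022 for G14. The control was thus the lowest of the 7 libraries and G14 the highest. Relative to the control the sum was 1.45-fold in G14 (interval 1.44 to 1.46), 1.36-fold in G5 (1.35 to 1.36) and in G11 (1.35 to 1.37), 1.23-fold in G13 (1.22 to 1.24), 1.2-fold in G3 (1.19 to 1.21) and 1.15-fold in G12 (1.15 to 1.16). RBFOX2 stood at 98.6% of its control level in G14 and at 39.2% for G3. The G libraries share 1 control, so these 6 values are not independent of each other.

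**Figure D1:**
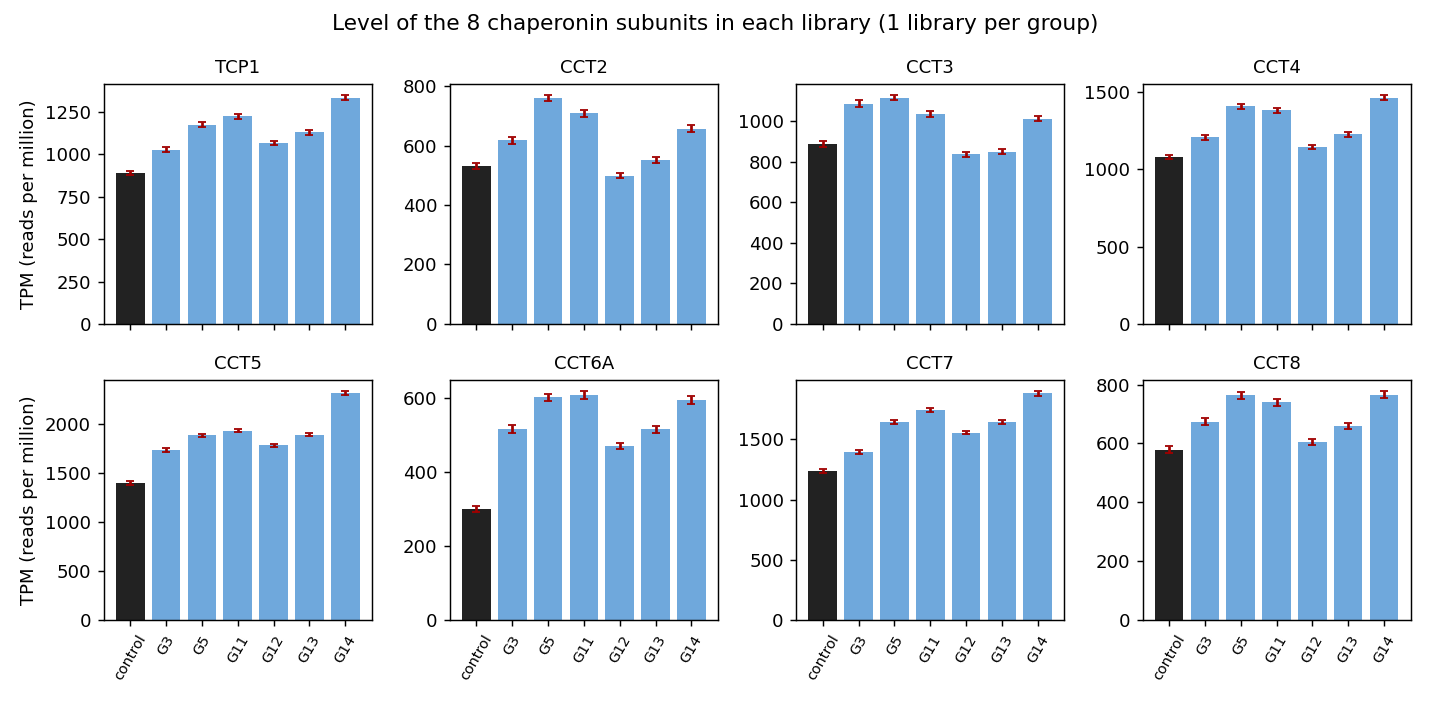
Level of each chaperonin subunit in TPM (linear axis from 0) in the control (black) and the 6 G libraries (blue), 1 library per bar, with exact 95% Poisson intervals for counting error. The control bar is the lowest for all subunits except CCT2 and CCT3, whose lowest bar is G12, and CCT6A has the largest step between the control and the G libraries.

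CCT6A (zeta subunit, ENSG00000146731.11, plus strand of chromosome 7 at 56051630 to 56063989) differed most from the control. It was at 299 TPM in the control, 516 for G3, 601 for G5, 607 for G11, 470.2 for G12, 515 for G13 and 593 for G14. All 6 G libraries were high and the control stood apart below them. The fold difference was 1.72 for G3 (interval 1.67 to 1.79), 2.01 for G5 (1.94 to 2.07), 2.03 for G11 (1.96 to 2.1), 1.57 for G12 (1.52 to 1.62), 1.72 for G13 (1.66 to 1.78) and 1.98 for G14 (1.92 to 2.05). The median log2 ratio of CCT6A over the 6 was 0.89, and 0.79 to 0.99 when each was left out in turn. CCT6A was the least abundant subunit in all 7 libraries. With the other 6 libraries in place of the control as the reference, its log2 ratio ran from -0.23 for G12 to 0.24 for G11.

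CCT5 and CCT7 followed in the median log2 ratio over the G libraries (0.43 and 0.41), though not in every library. CCT5 (epsilon, ENSG00000150753.12, plus strand of chromosome 5 at 10249921 to 10266412) was at 1394 TPM in the control, 1729 for G3, 1879.9 for G5, 1930.3 for G11, 1780.5 for G12, 1888 for G13 and 2313 for G14. It was the most abundant subunit in every library, and its level in G14, 1.66-fold the control (1.63 to 1.69), lay well above the other 5 G libraries. With the trend of length and GC content removed, as described below, the log2 ratio of CCT5 in G14 fell from 0.73 to 0.45, beside 0.40 for G13. CCT7 (eta, ENSG00000135624.17, plus strand of chromosome 2 at 73233420 to 73253021) was at 1238 TPM in the control, 1395 for G3, 1646 for G5, 1743 for G11, 1556 for G12, 1641 for G13 and 1883 for G14. It too was lowest in the control and highest in G14, at 1.52-fold (1.5 to 1.55).

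TCP1, CCT4 and CCT8 were above the control in all 6 G libraries, with smaller medians (0.37, 0.27 and 0.29). In G3 the log2 ratios of TCP1 (0.21) and CCT8 (0.22) were above that of CCT7 (0.17). TCP1 (alpha, ENSG00000120438.12, minus strand of chromosome 6 at 159778498 to 159789749) was at 890.1 TPM in the control, 1027 for G3, 1176 for G5, 1224 for G11, 1069 for G12, 1131 for G13 and 1334 for G14. CCT4 (delta, ENSG00000115484.15, minus strand of chromosome 2 at 61868089 to 61888804) was at 1079 TPM in the control, 1206 for G3, 1405 for G5, 1380.1 for G11, 1145 for G12, 1225 for G13 and 1463 for G14. In both, G14 was highest and the control lowest. CCT8 (theta, ENSG00000156261.13, minus strand of chromosome 21 at 29055805 to 29073797) was at 578 TPM in the control, 673 for G3, 763 for G5, 739 for G11, 605 for G12, 659 for G13 and 766 for G14. The ratios of CCT8 to the control ran from 1.05 for G12 (1.02 to 1.07) to 1.32 for G14 (1.29 to 1.36), and G5 and G14 did not differ beyond counting error.

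With library totals as the scale, CCT2 and CCT3 were the only subunits below the control in any G library. CCT2 (beta, ENSG00000166226.13, plus strand of chromosome 12 at 69585334 to 69601570) was at 531 TPM in the control, 618 for G3, 759 for G5, 708 for G11, 499 for G12, 551 for G13 and 656 for G14. It was highest in G5, and in G12 it was at 0.94-fold the control (0.915 to 0.965). CCT3 (gamma, ENSG00000163468.15, minus strand of chromosome 1 at 156308968 to 156367873) was at 889.6 TPM in the control, 1088 for G3, 1117 for G5, 1038 for G11, 837 for G12, 851 for G13 and 1014 for G14. It was at 0.941-fold in G12 (0.922 to 0.961) and 0.957-fold in G13 (0.936 to 0.977), intervals that exclude equality for these libraries but carry no replicate error. When libraries were scaled by the median of gene ratios instead of their totals, all 48 ratios of the 8 subunits in the 6 G libraries were above the control, against 45 of 48 with library totals. That scaling moved the log2 ratios of G12, G13 and G14 upward by 0.14, 0.16 and 0.11, against under 0.05 in either direction elsewhere. With library totals, 35.7% (G13) to 63.1% (G3) of all genes compared were above the control. Among genes whose mean TPM reached 200, the share was 58.8% (G3) to 66.6% (G5). These shares were not taken under the other scaling.

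The ratios were then read against those of all 7877 genes compared, on the log2(TPM + 0.5) scale. A difference of at least 1.5-fold was counted. CCT6A was the only subunit at least 1.5-fold higher in G3, where 8.71% of all genes were, in G5 (3.71%), in G11 (6.53%), in G12 (5.08%) and in G13 (6.86%). In G14 CCT6A, CCT5 and CCT7 passed, 3 of 8, beside 15.5% of all genes, and TCP1 lay just under the threshold at a log2 ratio of 0.58. No subunit was at least 1.5-fold lower in any G library, while 12.3% of all genes were in G3, 17.2% for G5, 22.5% for G11, 22.6% for G12, 29.1% for G13 and 31% for G14. Among the 1066 genes whose mean TPM reached 200, 2.25% were at least 1.5-fold higher in G3, 3.75% for G5, 14.4% for G11, 11.3% for G12, 15.9% for G13 and 26.8% for G14. Beside these shares, 1 of 8 subunits is near the background in G11, G12 and G13, and 3 of 8 for G14 is not far from it.

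The median log2 ratio of the 8 subunits was 0.22 for G3, 0.41 for G5, 0.44 for G11, 0.17 for G12, 0.27 for G13 and 0.51 for G14. Over all genes compared the medians were 0.12, 0.14, -0.04, -0.16, -0.21 and -0.10 in the same order, and over the 1066 highly expressed genes 0.07, 0.22, 0.20, 0.13, 0.16 and 0.17. The subunits were thus above the median gene by 0.10 for G3 and by up to 0.62 for G14. Ratios to the control in these libraries vary with transcript length and GC content, whose joint share of the variance across genes was lowest for G12 (30.0%) and highest for G5 (46.5%). The subunit transcripts are of middle length, from 1914 nt for CCT7 to 3672 nt for CCT5, with a GC content of 43.1% to 51.8%. With that trend removed the medians of the 8 were 0.22 for G3, 0.35 for G5, 0.29 for G11, 0.12 for G12, 0.17 for G13 and 0.34 for G14, and CCT6A ran from 0.58 (G12) to 0.84 (G11). CCT6A was then the highest subunit except in G14, where CCT7 was at 0.78. CCT3 was then above the control in G12 (0.02) and G13 (0.07), while CCT2 was below it in both (-0.12 and -0.03).

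**Figure D2:**
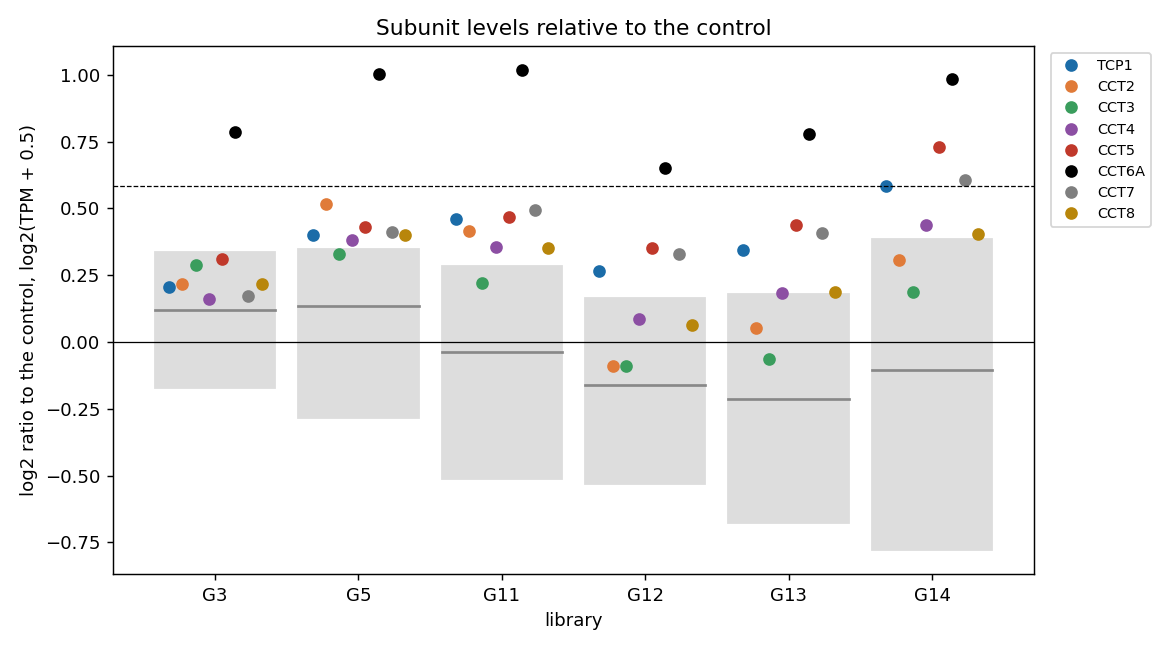
Log2 ratio of each subunit to the control, on the log2(TPM + 0.5) scale, in the 6 G libraries (1 library each, coloured points). Grey boxes run from the lower to the upper quartile of all 7877 genes, with their median as a line, and the dashed line marks 1.5-fold. CCT6A is the highest point in all 6 libraries, and CCT2 and CCT3 lie below 0 for G12, CCT3 also in G13.

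Shares within the set do not depend on how libraries are scaled. The trend of length and GC content was not removed from them. CCT5 held the largest share of the reads of the 8, from 20.1% for G5 to 23.1% for G14, and CCT6A the smallest. The share of CCT6A was 4.34% in the control (Wilson interval 4.22 to 4.46), 6.26% for G3, 6.43% for G5, 6.48% for G11, 5.91% for G12, 6.08% for G13 and 5.92% for G14 (5.82 to 6.02). The ratio of the most to the least abundant subunit mRNA, CCT5 to CCT6A, was 4.66 in the control and between 3.13 (G5) and 3.9 (G14) in the G libraries. The reads of the mRNAs were therefore unequal in every library, although the complex contains the proteins in equal number, and the spread was widest in the control.

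CCT3 and CCT2 lost share in some of the libraries. The share of CCT3 was 12.9% in the control, 13.2% for G3, 12% for G5, 11.1% for G11, 10.5% for G12, 10.1% for G13 and 10.1% for G14. CCT3 was level with TCP1 in the control, where their intervals overlap (0.999 of TCP1), above it in G3 (1.06) and below it in G13 (0.753) and G14 (0.76). The share of CCT2 was 7.69% in the control, highest in G5 at 8.12% and lowest in G12 at 6.26%, with 6.51% for G13 and 6.55% for G14. CCT7 held 17.9% in the control, 16.9% for G3 and between 18.8% and 19.5% for G12, G13 and G14. CCT4, TCP1 and CCT8 stayed within 14.4% to 15.6%, 12.4% to 13.4% and 7.6% to 8.38%. The order of the subunits was CCT5, CCT7, CCT4, TCP1, CCT3, CCT8, CCT2, CCT6A in the control and in 5 of the 6 G libraries. In G3 CCT3 and TCP1 changed places.

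**Figure D3:**
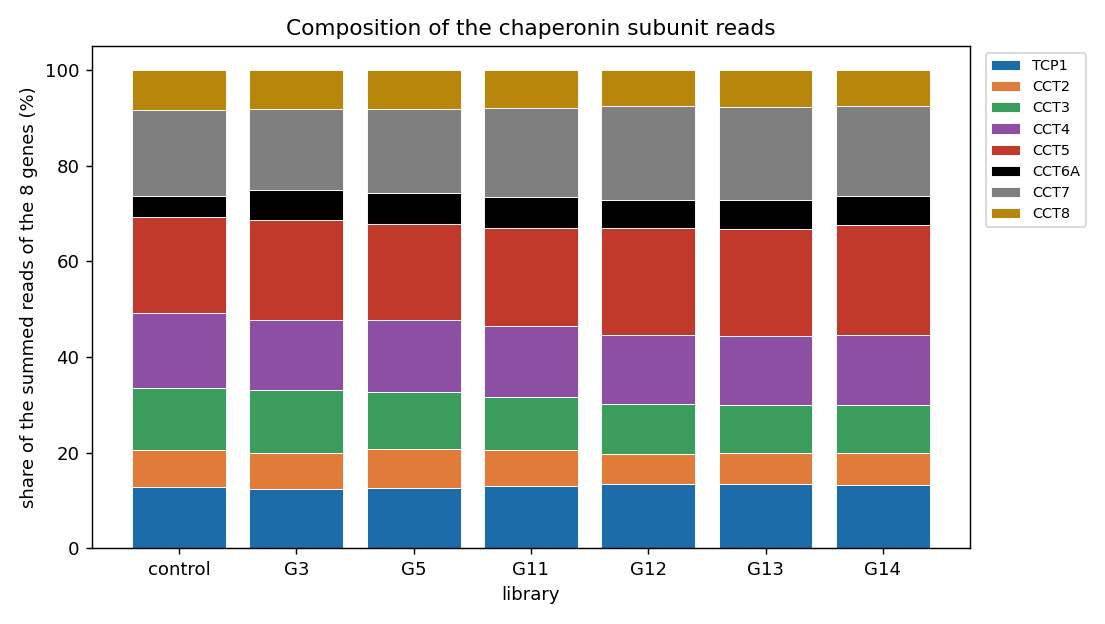
Share of each subunit in the summed reads of the 8 genes, in percent, for the control and the 6 G libraries (1 library per bar). The black CCT6A segment is thinnest in the control (4.34%), and the green CCT3 segment narrows from 12.9% in the control to 10.1% for G13 and G14.

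In each subunit 1 isoform made up nearly all reads, and none of the others reached 5% on average. The leading isoform held from 90.2% (TCP1 for G13) to 98.3% (CCT5 for G3) of the reads of its gene. For comparison the leading isoform of a gene held a median of 76.5% to 79.9% over all genes compared, and 90.0% to 91.3% over the highly expressed ones. Isoform usage was compared with the control by the total variation distance, which is 0 for equal shares and 1 where no isoform is shared. Its median over the 8 subunits was between 0.00947 (G5) and 0.0157 (G13). Over all genes it was between 0.0616 and 0.0763, and over highly expressed genes between 0.0192 and 0.0243. The largest distances of a subunit were 0.0361 for CCT8 and 0.0359 for CCT2, both in G14. The difference in the level of CCT6A was one of the whole gene, since its leading isoform ENST00000275603.9 (56051562 to 56063991) held 95.1% of its reads in the control and 95.1% to 96.0% in the G libraries.

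The second isoform of CCT6A was ENST00000335503.3. It lacks exon 3 of the 14 exons of the leading isoform (chr7:56054369-56054503, plus strand, GRCh38), a coding exon of 135 bases, or 45 whole codons. This exon is printed because it carries the codons of the ATP-binding pattern, shown in capitals from its base 64 on.
CCT6A exon 3: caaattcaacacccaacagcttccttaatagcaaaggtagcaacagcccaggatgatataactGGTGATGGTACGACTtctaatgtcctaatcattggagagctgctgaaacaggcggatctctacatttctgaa
The isoform without it held 2.84% of the CCT6A reads in the control, 3.29% for G3, 3.61% for G5, 3.11% for G11, 3.09% for G12, 3.01% for G13 and 2.66% for G14. The Wilson interval of the control, 2.42 to 3.34, overlaps those of all 6 G libraries, of which G5 was highest (3.33 to 3.92) and G14 lowest (2.4 to 2.96). In CCT3 the second annotated isoform, ENST00000368259.6, lacks 2 exons of 114 bases in all and held 1.55% of the reads in the control and 1.13% to 1.39% in the G libraries. The other annotated isoforms of the 8 genes held at most 0.684% (ENST00000543146.2 of CCT2 for G14).

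With the leading isoform set aside, the isoform whose share differed most began inside the gene in CCT5, CCT7 and CCT8. In the other subunits it began nearer the leading start. Hashed isoform is used for an isoform whose ID is not a reference ID, numbered within its gene by mean share. Hashed isoform 1 of CCT2 begins 10 bases past the leading start. It held 1.35% of the reads of CCT2 in the control, 1.27% for G3, 3.5% for G13 and 3.41% for G14. Hashed isoform 1 of TCP1 held 2.04% in the control, 1.95% for G3, 1.96% for G5 and 3.36% for G13. In CCT3 the values of hashed isoform 1 were 0.776% in the control and 1.94% for G14, and in CCT4 0.546% and 0.388%. Hashed isoform 1 of CCT8 (29056321 to 29070338) begins 3462 bases past the start of the leading isoform, in intron 1. It held 2.14% of the reads of CCT8 in the control (Wilson interval 1.87 to 2.45), 1.98% for G3, 2.3% for G5, 2.75% for G11, 3.87% for G12, 4.35% for G13 and 4.87% for G14 (4.55 to 5.22). The values of G12, G13 and G14 lay above all others, with intervals that do not overlap that of the control. Hashed isoform 1 of CCT5 (10254143 to 10266388) begins 4206 bases past the leading start, also in intron 1. Its share was 0.76% in the control, 0.551% for G3, 0.8% for G5, 1% for G11, 1.23% for G12, 1.48% for G13 and 1.49% for G14. G3 was the lowest and G13 and G14 were the highest.

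Hashed isoform 1 of CCT7 (73239641 to 73253021) begins 5413 bases past the leading start, at the very end of intron 1, just before the exon that starts at 73239643. The annotated start of ENST00000626868.1 is 96 bases away. This hashed isoform held 1.66% of the reads in the control, 1.61% for G3, 1.4% for G5, 1.96% for G11, 2.26% for G12, 2.37% for G13 and 2.13% for G14. In CCT2 the commonest isoform that begins over 1 kb past the leading start (69586752 to 69601580) begins in intron 2. Its share ran from 0.862% for G3 to 2.02% for G14, with 1.23% in the control. It differed less than hashed isoform 1 of CCT2, which begins near the leading start. In TCP1 the commonest such isoform, at 159778497 to 159785998, begins in intron 3 and differed little, from 0.899% for G5 to 1.42% for G13, with 1.13% in the control. CCT4 and CCT6A had no isoform that begins over 1 kb past the leading start, and CCT3 had 3 with at most 0.0627% of its reads (G12).

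The same measure was taken over other genes. Of the 1066 highly expressed genes, 423 had at least 0.5% of their reads on average on isoforms that begin over 1 kb past the start of the leading isoform, TCP1, CCT2, CCT5, CCT7 and CCT8 among them. The median share over the 423 genes was 1.62% in the control, 1.31% for G3, 1.39% for G5, 1.78% for G11, 2.04% for G12, 2.35% for G13 and 2.08% for G14. Over the 5 subunits it was 1.69%, 1.62%, 1.41%, 1.97%, 2.27%, 2.38% and 2.03% in the same order. Both medians were lower than the control in G3 and G5 and higher in the other 4 libraries. Single subunits departed from this. Of the 5, the number above the control was 0 for G3, 2 for G5, 4 for G11, 5 for G12, 5 for G13 and 4 for G14, beside 19.9%, 27.0%, 65.2%, 79.4%, 86.1% and 76.4% of the 423 genes. The share of TCP1 was 2.53% in the control, 2.16% for G11 and 1.84% for G14, and that of CCT8 was 2.22% in the control, 2.34% for G5 and 4.94% for G14. A shorter read of the same transcript and a separate start site cannot be told apart in this table. Where a reference ID stands for many reads, its coordinates are outer limits.

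**Figure D4:**
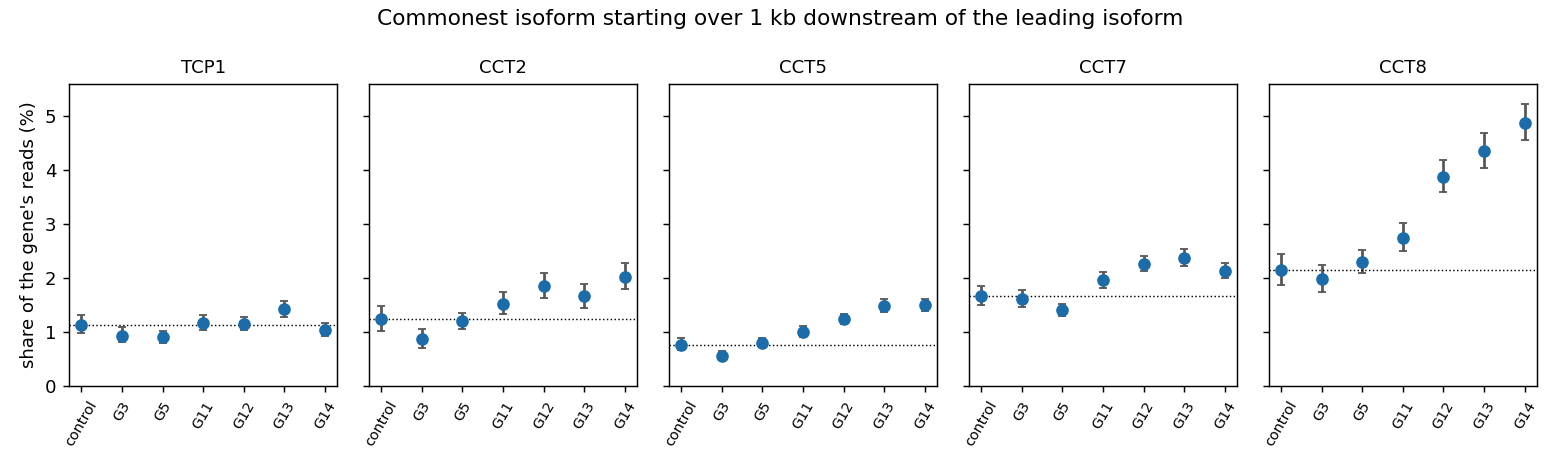
Share of a gene's reads, in percent, held by the commonest isoform that begins over 1 kb past the start of the leading isoform, in TCP1, CCT2, CCT5, CCT7 and CCT8 (1 library per point, bars are Wilson 95% intervals for counting error, the dotted line is the control). The CCT8 isoform reaches 4.87% for G14 against 2.14% in the control, while the TCP1 isoform stays between 0.899% and 1.42%.

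The genes next to the subunits were compared next. In 5 cases the annotated start of a subunit lies within 1 kb of that of a listed gene on the opposite strand (GENCODE 29). TCP1 starts 63 bases from MRPL18, a mitochondrial ribosomal protein, CCT4 80 bases from COMMD1, CCT5 24 bases from ATPSCKMT, CCT6A 26 bases from PSPH, an enzyme of serine synthesis, and CCT7 182 bases from PRADC1. The annotated start of CCT7 is at 73233420, but its leading isoform begins further inside, at 73234228. Most of its reads therefore start further from PRADC1 than 182 bases. MRPL18 was at 208 TPM in the control, 93.6 for G3, 89.5 for G5, 112 for G11, 163 for G12, 162 for G13 and 88.3 for G14, below the control throughout. COMMD1 was at 37.8 TPM in the control and 18.6 (G14) to 28.8 (G13) in the G libraries, and PRADC1 at 20.7 TPM and 7.35 (G14) to 13.2 (G12). MRPL18, COMMD1 and PRADC1 were thus below the control in every G library, while TCP1, CCT4 and CCT7 were above it. The sizes did not always go together. The log2 ratio of MRPL18 was -1.15 for G3 and -1.23 for G14, where that of TCP1 was smallest (0.21) and largest (0.58). Of all genes compared, 12.3% (G3) to 31% (G14) were at least 1.5-fold lower.

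PSPH, the neighbour of CCT6A, was near its control level of 99.8 TPM, from 73.0 for G12 to 109 for G5, and so did not share the difference of CCT6A. ATPSCKMT was at 14.9 TPM in the control and 10.5 (G12) to 14.3 (G5) in the G libraries. MRPL18, COMMD1 and PRADC1 have short transcripts, of 978, 911 and 1083 nt. With the trend of length and GC content removed, the median log2 ratio over the 6 G libraries moved from -1.02 to -0.44 for MRPL18, from -0.88 to -0.21 for COMMD1 and from -0.88 to -0.27 for PRADC1, while that of TCP1 was 0.24, that of CCT4 0.15 and that of CCT7 0.53. The signs within these pairs stayed opposite.

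**Figure D5:**
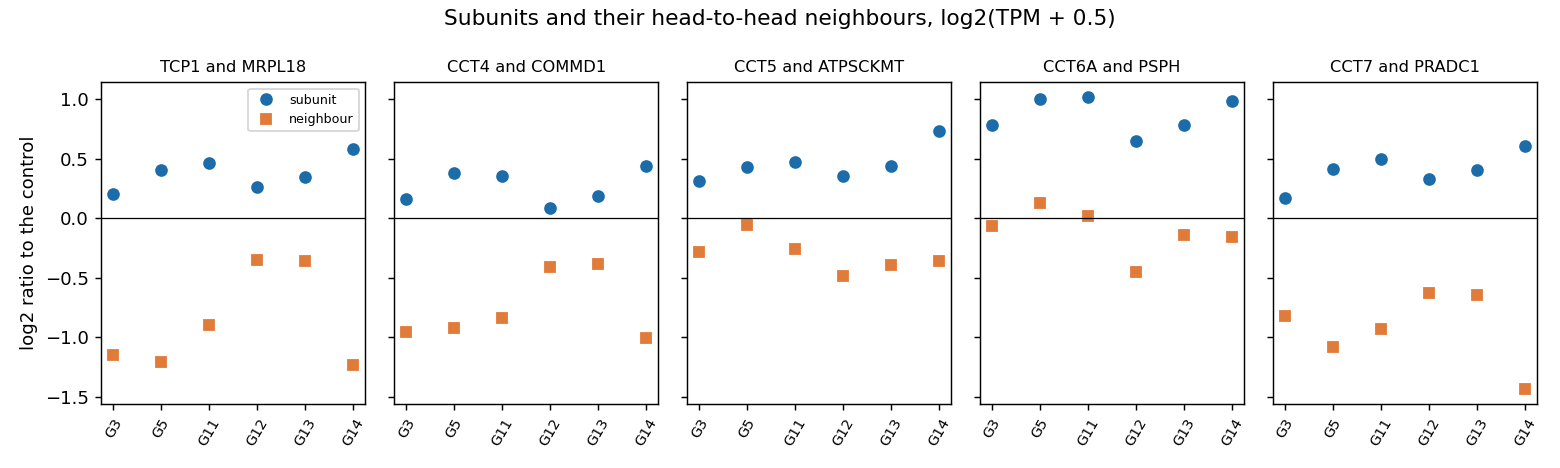
Log2 ratios to the control, on the log2(TPM + 0.5) scale, of 5 subunits (blue circles) and of the gene that starts within 1 kb on the opposite strand (orange squares), in the 6 G libraries (1 library per point). The subunit lies above its neighbour in all 6 libraries in each of the 5 pairs, and the neighbours MRPL18, COMMD1 and PRADC1 lie furthest below 0.

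RefSeq promoter sequences (GRCh38.p14, 250 bases before to 50 after the annotated start) were in the table for 7 subunits, and for CCT6A there was no entry. Where a gene had several, the one nearest the start of its leading isoform was used, which lay between 10 bases (CCT2 and CCT4) and 600 bases (CCT5) from it. The windows of CCT5 and CCT3 lie wholly past that start, inside the gene, so they may not hold the promoter of the leading isoform. Both are included in the counts below. Of 7 short motifs, each was searched on both strands. The GC box, with the letters GGGCGG, was in 5 of the 7 promoters, and in 45.0% of the 35116 promoters of the same length. CCAAT was in 4 of 7, and in 34.6% of all. The heat shock element GAANNTTC was in 1 of 7 (TCP1), and in 6.77% of all. The ETS site CCGGAAG was in 1 of 7 (CCT2), and in 10.3% of all. None of the 7 held the other heat shock form TTCNNGAA (7.74% of all). The E-box, spelled CACGTG, was likewise in none of them (7.26% of all). The TATA box, spelled TATAAA, was also in none (11.5% of all). The promoters of TCP1 and CCT2 are shown, with the matches in capitals, because they alone hold a match to GAANNTTC or to CCGGAAG. Other spellings of the ETS site were not searched. No motif overlaps another in them, and a match is a string of letters, not a measured site.
TCP1 promoter (chr6:159789553-159789852, minus strand): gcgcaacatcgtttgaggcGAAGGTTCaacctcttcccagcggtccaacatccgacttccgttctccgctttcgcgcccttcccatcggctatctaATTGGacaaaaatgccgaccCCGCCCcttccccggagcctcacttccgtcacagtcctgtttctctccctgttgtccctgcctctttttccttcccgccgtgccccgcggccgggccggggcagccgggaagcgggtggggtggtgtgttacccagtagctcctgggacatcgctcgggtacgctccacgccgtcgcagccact
CCT2 promoter (chr12:69585209-69585508, plus strand): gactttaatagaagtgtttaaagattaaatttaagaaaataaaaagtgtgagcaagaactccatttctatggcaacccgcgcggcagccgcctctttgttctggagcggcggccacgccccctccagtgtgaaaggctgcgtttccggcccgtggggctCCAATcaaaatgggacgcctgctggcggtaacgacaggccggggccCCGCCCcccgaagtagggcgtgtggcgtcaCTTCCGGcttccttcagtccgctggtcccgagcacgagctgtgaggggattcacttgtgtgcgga

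Partners of the chaperonin were read from lists, with the shares of all genes given above as the background (12.3% to 31% at least 1.5-fold lower). These shares are for ratios without the trend of length and GC content removed. With it removed no share of all genes was counted, so such counts here and below have no background. Of the 6 subunits of prefoldin, 5 passed the expression filter and PFDN6, with a mean of 3.41 TPM, did not. None was at least 1.5-fold higher in any G library. At least 1.5-fold lower were 3 of 5 for G3, beside 12.3% of all genes, 3 for G5 (17.2%), 2 for G11 (22.5%), 2 for G12 (22.6%), 1 for G13 (29.1%) and 2 for G14 (31%), the last few near the background. With the trend of length and GC content removed, the number lower was 1 for G3, 2 for G5, 2 for G11, 1 for G12, 1 for G13 and 2 for G14, and PFDN2 was then at least 1.5-fold higher in G11, G12 and G14. The medians of 3 of the 5 genes over the G libraries were then above 0: PFDN1 (0.03), PFDN2 (0.64) and VBP1 (0.27). PFDN5 was at 43.5 TPM in the control and 8.07 (G14) to 17.7 (G3) in the G libraries, and its median log2 ratio was -1.58, or -1.07 with the trend removed. VBP1 was at 178 TPM in the control, 170.1 for G3, 174 for G12 and up to 220.4 for G5.

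Of the 3 phosducin-like co-factors, all passed the filter. PDCL3 was at least 1.5-fold lower in G3 and in G5, at 154 and 152 TPM against 246 in the control, and was at 300.4 for G12 and 324 for G13. With the trend removed its log2 ratios were -0.36 for G3 and -0.33 for G5, short of 1.5-fold. PDCL was between 45.6 and 57.3 TPM in the G libraries with 49.7 in the control. Of 5 tubulin folding cofactors, which take over tubulin after the chaperonin, TBCC had no row in the table and 4 passed the filter. At least 1.5-fold lower were 1 of 4 for G3 (TBCB), beside 12.3% of all genes, TBCB and TBCA in G5 (17.2%), G11 (22.5%) and G14 (31%), TBCA in G12 (22.6%) and TBCB in G13 (29.1%). TBCB was at 351 TPM in the control and 119.5 (G14) to 242 (G12) in the G libraries. With the trend removed TBCB was still past 1.5-fold in G3, G5, G11 and G14 but at -0.16 for G13, and TBCA, with a median of 0.01, was past it in none. TBCD was then at least 1.5-fold higher in G13 (0.99). TBCE was at 58.4 TPM in the control and 54.2 to 66.9 in the G libraries.

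Actin and tubulin, the best known clients, are encoded by 12 listed genes, all of which passed the filter. They summed to 27838 TPM in the control, 39239 for G3, 30794 for G5, 24676 for G11, 18881 for G12, 18056 for G13 and 19311 for G14. Most of the sum was ACTB, at 17873 TPM in the control. The sum was highest in G3 and lowest in G13. In G3, 1 of 12 was at least 1.5-fold higher (ACTG1), beside 8.71% of all genes. At least 1.5-fold lower were 2 of 12 for G11, beside 22.5% of all genes, 6 for G12 (22.6%), 5 for G13 (29.1%) and 5 for G14 (31%), and none in G3 or G5. With the trend removed the number lower was 1 for G11, 3 for G12, 2 for G13 and 3 for G14, ACTB and ACTG1 were higher in G3, and 7 of the 12 had a median above 0. TUBB4B was at 164 TPM in the control, 200.2 for G3 and 51.8 for G14. TUBG1, a gamma tubulin, was at 431 TPM in the control and 346 to 457 in the G libraries. Actins and tubulins have near-identical relatives and pseudogenes, and the handling of reads they share is unknown here, so single values among them are uncertain.

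The 7 other clients all passed the filter and summed to 1067 TPM in the control. In G14, 1 of 7 was at least 1.5-fold higher and 3 lower, beside 15.5% and 31% of all genes. In G3, 1 was higher (8.71%), and lower were 1 for G11 (22.5%), 2 for G12 (22.6%) and 3 for G13 (29.1%). With the trend removed, for which no share of all genes was counted, 4 were higher and 1 lower in G13, and 2 higher and 1 lower in G14. In G5, G11 and G12, 1 was then lower in each. FZR1, an activator of the anaphase-promoting complex, was at 8.69 TPM in the control, 16.2 for G3 and 2.24 for G13, log2 ratios of 0.87 and -1.75. With the trend removed these were 0.08 and 0.71, so the direction in G13 turned. STAT3, a transcription factor, was at 98.3 TPM in the control and 116 to 146 in the G libraries, above the control in each. Of the more distant chaperonin relatives, CCT6B had 3 reads in the control (0.179 TPM, at the floor of 3 reads) and at most 0.658 TPM elsewhere. MKKS, BBS10 and BBS12 passed the filter and none differed by 1.5-fold in any G library. HSF1, the main heat shock transcription factor, was at 324 TPM in the control, 426 for G3, 389 for G5, 299 for G11, 214 for G12, 136 for G13 and 204 for G14. Its log2 ratios of -0.11, -0.59, -1.25 and -0.67 for G11, G12, G13 and G14 turned to 0.54, 0.21, 0.05 and 0.38 with the trend removed. HSF2 was at 27.6 TPM in the control and 27.0 to 38.6 in the G libraries.

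The genes whose pattern over the 7 libraries was most like the mean of the 8 subunits were found by the root mean square difference of centred log2(TPM + 0.5), over 5211 other genes whose mean TPM reached 20. The first 4 were SS18 (0.0244), SUPT7L (0.0275), GNAI3 (0.0294) and STIP1 (0.0308). The median over all these genes was 0.273. STIP1, which links the heat shock proteins of the other chaperone systems, was at 738 TPM in the control, 844 for G3, 997 for G5, 992 for G11, 829 for G12, 868 for G13 and 1058 for G14. Among the subunits, CCT4 (0.0407) and CCT8 (0.0418) lay nearest the mean pattern, followed by TCP1 (0.0601), CCT7 (0.0882), CCT5 (0.0913), CCT2 (0.117), CCT3 (0.138) and CCT6A (0.175). Each subunit is itself part of that mean, so its value is not comparable with those of the other genes. SS18, SUPT7L, GNAI3 and STIP1 are by selection among the nearest of the 5211. All of these values share the same 7 libraries.

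GENCODE 29 lists 13 pseudogenes named after the 8 subunits, for CCT4, CCT5, CCT6A, CCT7, CCT8 and TCP1. None had a row in the table by its ID, and no listed isoform lay within any of them, so the table does not separate transcribed copies such as CCT6P1 and CCT6P3 from CCT6A. Their part in the values of CCT6A was not tested.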

How the data were processed

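Per the labels' protocols, cDNA molecules were joined into 8-fold arrays (MAS-Seq), sequenced on the Revio system and split into single reads. The submitters' processing notes name minimap2 2.17 and the build GRCh38; the software that called and counted isoforms is not given in the sources used here. Isoform by isoform, the authors deposited a count of full-length reads and a TPM for every library, per the file headers. Within 0.0062 TPM, deposited TPM was proportional to the count in a library, which gave the totals. Every isoform listed was read in the control, and others are not analysed here; isoforms of the control alone held 0.163% of its chaperonin reads. Blank cells count as 0. Isoform values were summed by Ensembl stem, and starts are printed with 1 added. Levels were compared as log2(TPM + 0.5) for genes whose mean TPM reached 5, and fold changes of low genes are understated on that scale. With 1 library per group no test was made. Ratios have exact (Clopper-Pearson) intervals and shares Wilson intervals. Length and GC content came from GENCODE 29 and were known for 7736 of the 7877 genes; a quadratic surface of both was subtracted as an alternative. The calculation was tested on simulated data. The genes named are the 8 subunits, their annotated and most changed isoforms, their head-to-head neighbours, the 5 most similar genes (1 of which is not reported here), and, from each list of partners, clients or factors, those with the highest and lowest median ratio. A few further genes (PFDN1, PFDN2, PFDN6, ACTB, ACTG1 and single markers) were named after their values were seen, as were the group of genes whose mean TPM reached 200, the measure of downstream starts, the codon pattern and the promoter motifs. The members and lists were chosen with earlier results of these data known. Python 3.11.15, numpy 2.4.6, scipy 1.17.1 and pandas 2.3.3 were used.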

Additional observations from a re-analysis of the deposited data

How the results depend on the processing

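Pseudocounts of 0.1 and 1 TPM, and a sum over isoforms read in all 7 libraries (an alternative chosen after seeing the data), changed no count of subunits past 1.5-fold by more than 1.5 times; nor did a sum over reference IDs or over isoforms whose mean TPM reached 1. With the median of the other 6 libraries as the reference, the count was 0 in each of the 6 G libraries, and the log2 ratio of CCT6A changed sign to -0.10 in G3, -0.23 in G12 and -0.11 in G13. A 2-fold threshold gave 0 in G3, G12, G13 and G14, and a lower threshold, 0.32 on the log2 scale, gave 8 for G5, 7 for G11, 3 for G12, 4 for G13 and 6 for G14. With length and GC content removed, the count was 2 in G11, 0 in G12 and 2 in G14, where CCT5 (log2 ratio 0.45) fell short. With scaling by the median of ratios the count was 2 in G13. Shares of all genes were not counted at the other thresholds, with length and GC content removed or with this scaling. Leaving out each G library in turn moved the median log2 ratio of CCT4 over the G libraries to 0.18 to 0.36 and that of CCT8 to 0.22 to 0.35. No paired analysis was possible because each group has 1 library and all carry the same replicate number. Depth limits only the rarer isoforms: 3 reads, the floor, are worth 0.112 to 0.179 TPM.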
